A study of Mus musculus with 11 samples.

Results

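The whole retina of streptozotocin-treated mice was compared with that of vehicle-treated mice across all genes, without separating the cell classes. The UMIs (unique molecular identifiers, each counting 1 captured RNA molecule) of every gene were summed over all cells with more than 300 detected genes, so that each mouse gave 1 profile. Of the 11 libraries of the series, 6 entered the comparison, 3 from control mice and 3 from STZ mice, with 3205 control and 5748 STZ cells of the 20033 that passed this limit. All were retinas of C57BL/6J mice taken at postnatal day 10 (P10). Control mice were labelled as a normal condition and had received PBS, the injection vehicle. STZ mice were labelled as hyperglycemia-associated retinopathy and, according to the study's methods, had been injected intraperitoneally with streptozotocin every day from P1 to P9, without either experimental diet. Streptozotocin (STZ) is taken up by pancreatic beta cells and destroys them, which raises blood glucose. The methods also state that litters of STZ mice were kept smaller than those of control mice. The retinas had been dissociated with papain and the cells encapsulated in inDrop droplets, in which each cell's RNA is primed at its poly(A) tail and barcoded. The other 5 libraries came from STZ mice whose dams were fed an omega-3 or an omega-6 fatty acid diet, and are used only for values set beside these.

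At P10 the mouse retina is still maturing. Rod photoreceptors, the most numerous retinal cells, are building the outer segments that hold the light-sensing cascade, the synapses of photoreceptors onto bipolar cells are forming, and the eyes have not yet opened. Photoreceptors are known for a high demand for glucose and ATP. Immediate early genes are transcribed within minutes of a stimulus such as depolarisation, growth factors, stress or tissue handling, before any new protein is made, which makes them sensitive both to the state of the animal and to the minutes before RNA capture.

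Control libraries held 787 to 1493 cells and 2567056 to 3369648 UMIs, and STZ libraries held 1397 to 2312 cells and 2563064 to 3486742 UMIs. The median cell had 2019 ± 415 UMIs in control mice and 1100 ± 93.4 in STZ mice (SD, n = 3 each), without overlap, for which the exact permutation test gave its smallest possible two-sided p of 0.1. Rod, cone, bipolar, amacrine and Müller glia markers were detected in every library, as the retina label requires. Some barcodes occurred in more than 1 of these libraries, at most 25 in any pair. The control libraries stood apart from the STZ libraries: the correlation of log CPM between 2 mice was 0.942 to 0.970 within a group and 0.802 to 0.889 between groups. The labels name no litter, preparation day or sequencing batch, so that treatment and library preparation cannot be told apart, and each library was taken as 1 mouse, with p-values that cover the spread between these libraries only. In summed profiles, fewer cells of a type and less RNA per cell cannot be told apart either.

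Differences between the groups were widespread. Of 15964 genes with enough counts to be tested, 7677 (48.1%) were called at an adjusted p under 0.05 (edgeR quasi-likelihood test, Benjamini-Hochberg adjustment), 3943 (24.7%) higher in STZ mice and 3734 (23.4%) lower. For the middle gene of the ranking, the log2 fold change (STZ over control) stood at 0.0010. Among called genes, 1915 rose by more than 1 on the log2 scale and 337 by more than 2, while 1744 fell by more than 1 and 298 by more than 2. The 3 mice of each group did not overlap for 57.7% of the tested genes. At the other end, the 95% interval of the log2 fold change lay within 0.5 of 0 for 1106 genes (6.93%). These values use TMM scaling, which sets the bulk of genes to no change. With scaling to total counts alone, the median of all genes moved to 0.26, and 5536 genes were called higher against 2306 lower, so directions below are relative to the bulk of genes. Gene levels are given as TMM-scaled CPM (UMIs of the gene divided by the library's total and set to a common scale).

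**Figure D1:**
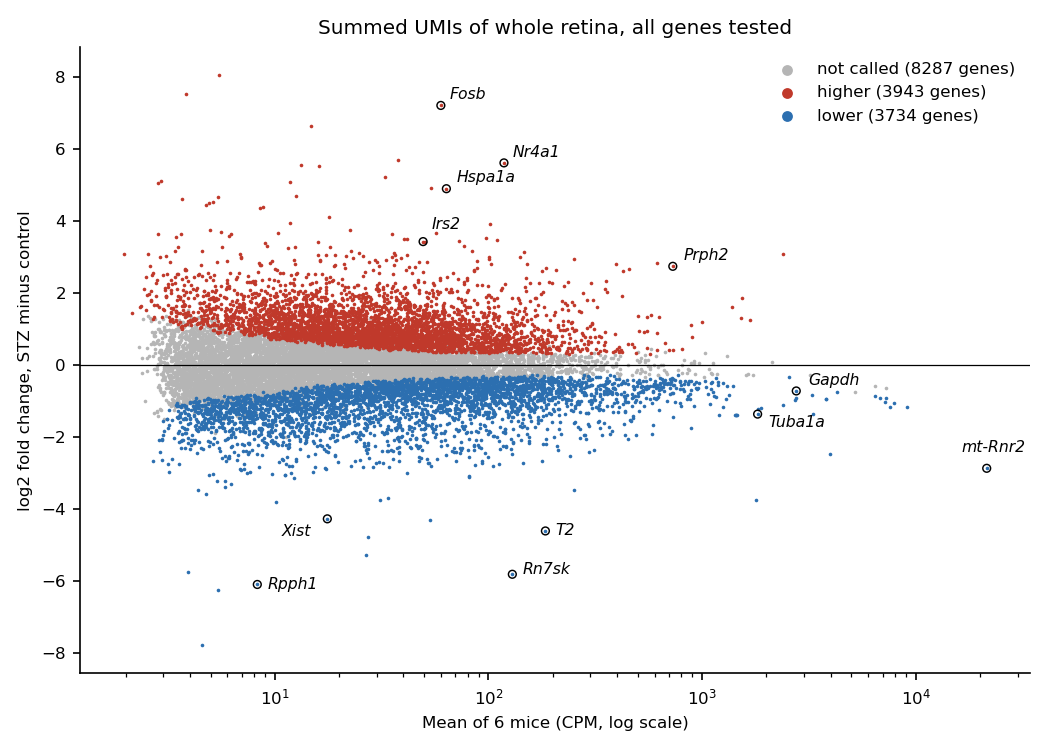
Log2 fold change, STZ over control, of the 15964 tested genes (y axis) against their mean CPM over the 6 mice on a log axis (x axis), with genes called higher in red, lower in blue and others in grey. Called genes lie on both sides of 0 over the whole range of levels, 3943 above it and 3734 below.

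Immediate early genes rose together. Of 32 tested, 30 were called higher in STZ mice and none lower, against 24.7% and 23.4% of all genes, and the median log2 fold change of the list was 3.05. Their summed share of all UMIs was 0.0563% ± 0.0151 in control mice and 0.362% ± 0.0391 in STZ mice (SD, n = 3 each, exact permutation p = 0.1, the smallest possible, and 0.16 after adjustment over 8 shares).

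Fosb, an AP-1 subunit (ENSMUSG00000003545.3, chr7:19302696-19310051, minus strand, GRCm38), had the largest rise of the list. Its level was 0.811, 0.425 and 1.01 CPM in the control mice and 112, 109 and 136 CPM in the STZ mice. It was thus near the limit of detection in every control mouse and moderate in every STZ mouse, with a log2 fold change of 7.20 ± 0.26 (SE, edgeR adjusted p = 2.5e-08). Nr4a1, an orphan nuclear receptor (chr15:101254269-101274795, plus strand), was at 4.46, 3.40 and 6.05 CPM in control mice and at 235, 219 and 241 CPM in STZ mice. The STZ mice differed little among themselves, and the log2 fold change was 5.60 ± 0.19 (edgeR adjusted p = 2.1e-08). Nr4a1 UMIs were found in 0.635% to 1.07% of control cells and in 14.3% to 17.3% of STZ cells, although STZ cells were the shallower ones. Fos itself, the prototype of the class, was at 41.3, 28.5 and 102 CPM against 391, 375 and 569 CPM, a log2 fold change of 2.93 ± 0.36 (edgeR adjusted p = 6.3e-05). It was already expressed in control mice, and so were Egr1, Jun and Junb, which rose by 2.62, 3.13 and 2.08 on the log2 scale. Junb overlaps Prdx2 on the opposite strand, and whether counting used the strand is not given in the sources used here.

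The genes with almost no UMIs in control mice showed the largest fold changes. Egr4 and Egr3, zinc-finger factors of neuronal activity, were at 0 to 0.405 and 0 to 1.34 CPM in control mice and at 17.1 to 43.1 and 23.2 to 44.3 CPM in STZ mice. Maff, a small Maf factor, was at 0, 0 and 3.70 CPM against 91.2, 70.1 and 60.4 CPM. Atf3, a stress-induced factor, and Nr4a3 rose by 5.55 ± 0.50 and 5.23 ± 0.31. The antiproliferative gene Btg2 was at 13.0, 20.8 and 32.9 CPM in control mice and 176, 152 and 209 CPM in STZ mice (log2 fold change 2.99 ± 0.25). Gadd45g and Ctgf were the only 2 of the 32 that were not called. Gadd45g, at 28.0 ± 7.31 CPM in control and 23.7 ± 2.11 CPM in STZ mice (SD, n = 3 each), had an interval of -0.73 to 0.22. No list of chemokines was drawn up, but the chemokine gene Ccl4 was among the 10 largest rises of genes with at least 10 CPM in STZ mice and no overlap, at 0, 2.12 and 0 CPM against 41.8, 10.5 and 16.3 CPM. Another, Cxcl10, named after its values were seen, had no UMI in any control mouse and 8.43, 14.3 and 10.2 CPM in STZ mice, at least 28.6-fold higher than the level that 3 UMIs over the control group would give. The interferon response list had no member called higher and 2 of 9 lower, against 24.7% and 23.4% of all genes.

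The stretches upstream of 2 of these genes are shown because both rose in all STZ mice while their proximal sequence differs. Each line gives the 250 bases before the RefSeq start (GRCm38.p6), 5′ to 3′ on the strand of the gene. Btg2 lies at chr1:134079156-134079405 on the minus strand and Nr4a1 at chr15:101266596-101266845 on the plus strand. Capitals mark matches to TGACGTCA (the CRE, bound by CREB), TGANTCA (AP-1), GGATTA (bound by CRX), TATAAA (the TATA box), GAANNTTC (the heat shock element core) or the CArG box, each searched on both strands.
Btg2: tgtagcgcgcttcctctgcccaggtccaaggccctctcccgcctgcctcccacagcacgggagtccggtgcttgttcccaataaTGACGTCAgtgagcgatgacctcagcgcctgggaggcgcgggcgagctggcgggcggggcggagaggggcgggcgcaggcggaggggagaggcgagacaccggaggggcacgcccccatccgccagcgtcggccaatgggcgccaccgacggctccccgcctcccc
Nr4a1: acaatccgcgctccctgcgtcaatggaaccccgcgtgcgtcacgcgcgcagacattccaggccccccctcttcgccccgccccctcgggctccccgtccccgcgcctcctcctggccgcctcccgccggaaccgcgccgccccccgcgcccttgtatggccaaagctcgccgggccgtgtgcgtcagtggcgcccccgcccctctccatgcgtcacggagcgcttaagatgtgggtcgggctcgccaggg
Btg2 held 1 CRE, whose first base is at -166, and Nr4a1 held none of the 6 motifs. Among the 27 immediate early genes with a window of 300 bases, which also takes in the 50 bases after the start, 2 held a CRE, compared with 3.25% of all 10402 tested genes with a window. TATAAA was found in 6 of the 27 (7.90% of all) and AP-1 in 0 of the 27 (4.74% of all).

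Heat shock chaperones moved in both directions. Of 18 tested, 7 were called higher and 5 lower, against 24.7% and 23.4% of all genes. Their median was 0.061, and DESeq2 called 4 higher and 5 lower. The inducible cytosolic chaperones Hspa1a and Hspa1b headed the rises. Hspa1a (chr17:34969190-34972156, minus strand) was at 5.67, 4.25 and 2.69 CPM in control mice and at 316, 23.7 and 28.9 CPM in STZ mice. All STZ mice lay above all control mice, but the first STZ mouse was far above the other two. Its Hspa1a UMIs came from 17.1% of its cells, compared with 3.58% and 3.59% in the other STZ mice and 0.536% to 1.19% in control mice. The log2 fold change of 4.89 ± 1.03 (edgeR adjusted p = 0.0024) ranged from 2.66 to 5.40 over the alternative analyses, the lowest without that mouse. Hspa1b, a near-identical copy whose reads may be split with Hspa1a, was at 17.4, 14.4 and 6.72 CPM against 488, 38.7 and 44.6 CPM. Dnajb1, their co-chaperone, was also highest in the first STZ mouse, at 255 CPM compared with 102 and 105 CPM, against 23.9 ± 5.70 CPM in control mice. The constitutive chaperones fell: Hspa8 was at 1579, 1412 and 1574 CPM in control mice and 878, 794 and 773 CPM in STZ mice (log2 fold change -0.90 ± 0.12), and Cct5 and Cct2, subunits of the TRiC chaperonin, changed by -1.46 and -0.69.

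The 250 bases before the RefSeq start of Hspa1a (GRCm38.p6, chr17:34972157-34972406, minus strand) are shown with the same motifs in capitals, since this gene had the largest rise among the chaperones.
Hspa1a: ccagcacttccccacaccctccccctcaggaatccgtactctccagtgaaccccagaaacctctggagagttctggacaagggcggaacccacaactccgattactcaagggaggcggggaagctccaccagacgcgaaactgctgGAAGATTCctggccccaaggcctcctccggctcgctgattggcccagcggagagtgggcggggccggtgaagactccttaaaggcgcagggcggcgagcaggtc
The match is a heat shock element core with its first base at -104. The core was found in the windows of 7 of 14 chaperone genes and in 5.80% of all tested genes.

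The unfolded protein and integrated stress response list had 13 of 17 members called higher and 1 lower, against 24.7% and 23.4% of all genes. Its median log2 fold change was 1.00. Atf4, the transcription factor at the centre of the integrated stress response, was at 146, 107 and 171 CPM in control mice and 579, 557 and 588 CPM in STZ mice (2.02 ± 0.16, edgeR adjusted p = 5.2e-06). Its target Ddit3, which encodes CHOP, was at 19.9, 18.3 and 16.5 CPM against 65.7, 79.2 and 84.3 CPM. Ppp1r15a, which restores translation by directing dephosphorylation of eIF2alpha, rose by 3.26 ± 0.32, Cebpb by 4.11 ± 0.39 and Sesn2 by 1.79 ± 0.24. The member that fell was Asns, asparagine synthetase, another ATF4 target, at 33.5 ± 6.98 CPM in control and 20.4 ± 1.55 CPM in STZ mice (-0.72 ± 0.20), a call lost in 3 of the alternative analyses.

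Rod photoreceptor genes were among the most abundant genes that rose. Of 20 rod phototransduction genes, 18 were called higher and none lower, against 24.7% and 23.4% of all genes, with a median of 1.80. Their summed share of all UMIs was 0.448% ± 0.140 in control mice and 1.82% ± 0.271 in STZ mice (SD, n = 3 each, exact permutation p = 0.1, the smallest possible, adjusted 0.16). Slc24a1, the rod cation exchanger, had the largest rise of the list. It (chr9:64922861-64951607, minus strand) was at 27.2, 7.65 and 19.8 CPM in control mice and 153, 200 and 254 CPM in STZ mice. The lowest STZ mouse was far above the highest control mouse, and the log2 fold change was 3.46 ± 0.31 (edgeR adjusted p = 1.1e-05). Guca1b, a guanylate cyclase activator, rose by 3.41 ± 0.29. Several other rod transcripts rose less. Gngt1, the gamma subunit of rod transducin, was at 785, 383 and 876 CPM against 1791, 1891 and 2548 CPM (1.61 ± 0.26), and Sag, which encodes arrestin, was at 499, 299 and 888 CPM against 1104, 1191 and 1328 CPM (1.10 ± 0.29). Grk1, a kinase that shuts off the cascade, rose by 0.47 ± 0.12. Rgs9 and Guca1a were not called, Guca1a with 38.0 ± 31.0 CPM in control mice and 62.1 ± 24.2 CPM in STZ mice. The second control mouse was the lowest of the 6 for Slc24a1, Gngt1 and Sag.

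The structural genes of the outer segment were called higher in 17 of 17 cases, against 24.7% of all genes, with a median log2 fold change of 2.16. Prph2, peripherin of the disc rim, was at 195, 114 and 262 CPM in control mice and 1124, 1255 and 1428 CPM in STZ mice (2.73 ± 0.24). The axonemal proteins Rp1l1 and Rp1 rose by 3.52 ± 0.21 and 2.79 ± 0.21. The transcription factors that set photoreceptor fate rose with them, 12 of 14, with a median of 1.88. Nrl, which directs cells to the rod fate, was at 127, 63.3 and 167 CPM against 514, 543 and 725 CPM (2.31 ± 0.27), Crx at 114, 73.9 and 141 CPM against 382, 419 and 526 CPM (2.00 ± 0.21), and Neurod1 at 134, 92.2 and 144 CPM against 795, 685 and 882 CPM (2.67 ± 0.17). Casz1 and Samd7 rose by 2.78 and 2.42, and Rxrg and Mef2c were not called. With scaling to total counts, 19, 17 and 12 genes of these 3 lists were called higher, and with each cell weighted alike 18, 17 and 12.

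**Figure D2:**
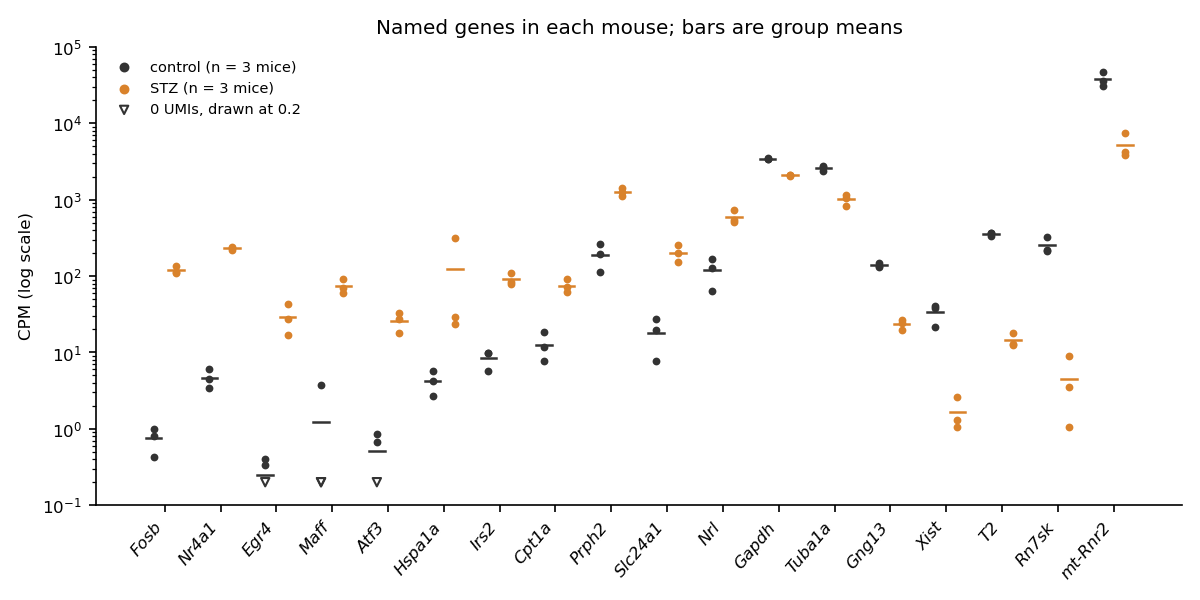
CPM of selected genes in each of the 6 mice on a log axis, with a point for each control (dark) or STZ (orange) mouse, a bar at each group's mean and an open triangle where a mouse had 0 UMIs. Prph2 and Fosb lie higher in all 3 STZ mice than in any control mouse, and Rn7sk and mt-Rnr2 lie lower.

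The upstream bases of Gngt1 (GRCm38.p6, chr6:3993758-3994007, plus strand) are printed as an example of a rod gene that holds the motif bound by CRX. A part of CRX in the rises was not tested.
Gngt1: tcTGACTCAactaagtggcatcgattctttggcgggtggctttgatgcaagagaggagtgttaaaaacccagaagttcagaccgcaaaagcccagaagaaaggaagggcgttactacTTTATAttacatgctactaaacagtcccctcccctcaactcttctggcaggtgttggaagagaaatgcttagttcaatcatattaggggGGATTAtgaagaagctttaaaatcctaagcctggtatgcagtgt
Capitals mark GGATTA with its first base at -44, TGACTCA (AP-1) at -248 and TATAAA on the opposite strand at -133. GGATTA was present in the windows of 7 of 13 rod genes and in 5.96% of all tested genes. As a whole, the genes called higher held it in 5.57% of cases and the genes called lower in 7.79%.

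Cone genes rose less uniformly. Of 11 tested, 7 were called higher and none lower, against 24.7% and 23.4% of all genes, with a median of 0.87. Opn1sw, the short-wavelength opsin, was at 112, 124 and 181 CPM in control mice and 437, 475 and 530 CPM in STZ mice (1.78 ± 0.17, edgeR adjusted p = 1.6e-05), and Arr3, cone arrestin, rose by 1.59 ± 0.26. Opn1mw, the medium-wavelength opsin, was at 65.3, 19.5 and 119 CPM against 71.2, 133 and 116 CPM, with overlapping groups and an interval of -0.31 to 1.57. Gnat2, cone transducin, was not called either (0.50 ± 0.23). Of 27 ribbon and presynaptic genes, 16 rose and 3 fell. Those that rose included Cabp4 (1.88 ± 0.24), a calcium-binding protein of the photoreceptor terminal, Ctbp2 (1.57 ± 0.15), whose RIBEYE isoform builds the synaptic ribbon, and Cplx4 (1.51 ± 0.21). Its relative Cplx3 went the other way, from 604, 488 and 527 CPM to 304, 380 and 280 CPM (-0.75 ± 0.14).

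The genes of inner retinal neurons did not move as 1 block. Of 22 bipolar cell genes, 4 were called higher and 8 lower, against 24.7% and 23.4% of all genes. Their summed share was 0.295% ± 0.0153 in control and 0.294% ± 0.0286 in STZ mice (SD, n = 3 each, exact permutation p = 1.0). Gng13, a G protein gamma subunit of ON bipolar cells, was at 136, 150 and 131 CPM in control mice and 19.8, 26.5 and 24.2 CPM in STZ mice (-2.57 ± 0.15, edgeR adjusted p = 1.7e-06). Pcp2, another ON bipolar gene, was at 538, 581 and 566 CPM against 151, 183 and 170 CPM (-1.74 ± 0.12). Both overlap a gene on the opposite strand that fell by as much, Chtf18 (-2.63) and Pet100 (-1.76), so the genes of each pair may share reads. Scgn, secretagogin of cone bipolar cells, fell by 1.38, whereas Prkca, which marks rod bipolar cells, was at 201, 240 and 202 CPM against 283, 360 and 272 CPM (0.51 ± 0.14).

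Amacrine genes were called higher in 5 of 20 cases and lower in 3, near the 24.7% of all genes called higher and under the 23.4% called lower. Slc6a9, the glycine transporter, rose from 58.8, 61.2 and 43.3 CPM to 117, 122 and 88.0 CPM (1.00 ± 0.17). Gad1 and Tfap2b were not called, at 265 ± 60.04 against 306 ± 68.6 CPM and 321 ± 51.5 against 380 ± 71.0 CPM. Chat, of cholinergic amacrine cells, was called lower (-1.56 ± 0.53), but its control level rested on 1 mouse (8.51, 35.7 and 8.74 CPM) and 5 alternatives lost the call. Of 11 retinal ganglion cell genes, 8 were called lower and none higher, with a median of -0.79, while scaling to total counts left 4 lower and giving each cell the same weight left 3 lower and 1 higher. Sncg, gamma-synuclein, was at 77.0, 97.3 and 119 CPM in control mice and 13.9, 37.7 and 27.8 CPM in STZ mice (-1.90 ± 0.28, edgeR adjusted p = 2.3e-04). Slc17a6, the vesicular glutamate transporter of ganglion cells, and the neurofilament gene Nefl fell by 1.52 and 1.42. Several of these 8 genes, among them Tubb3 and Stmn2, are expressed in neurons in general. Horizontal cell genes were called higher in 2 and lower in 1 of 6 cases, against 24.7% and 23.4% of all genes.

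Among Müller glia genes, 1 of 17 was called higher and 4 lower (29.4% called, against 48.1% of all genes), and their summed share was 0.293% ± 0.0515 in control and 0.285% ± 0.0435 in STZ mice (SD, n = 3 each, exact permutation p = 0.8). Glul and Rlbp1, the glutamine synthetase and the retinaldehyde-binding protein of these cells, were at 518 ± 48.1 against 564 ± 116 CPM and 309 ± 66.1 against 284 ± 78.2 CPM and were not called. Sox9 rose from 47.0, 23.4 and 47.0 CPM to 78.2, 74.0 and 84.6 CPM (1.00 ± 0.22). Apoe, the lipid carrier, fell from 663, 579 and 905 CPM to 389, 260 and 232 CPM (-1.29 ± 0.21), and Id3, an inhibitor of basic helix-loop-helix factors, fell by 1.94 ± 0.31. Of 27 Notch and glial regulators, 13 were called higher and 5 lower, against 24.7% and 23.4% of all genes, with a median of 0.35. Among those that fell were Id1 and Id2 (-1.76 and -0.85), and the Notch ligands Dll1 and Jag1 rose (2.20 and 1.86).

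The lists for vessels, immune cells and neighbouring tissues each took at most 0.0917% of the UMIs of a mouse. That value belonged to pigment epithelium genes, at 0.0485% to 0.0917% in control mice and 0.0264% to 0.0744% in STZ mice. Endothelial genes summed to 0.0255% to 0.0456% of UMIs in control mice and 0.0313% to 0.0499% in STZ mice. Of 10 tested, 0 were called higher and 3 lower, against 24.7% and 23.4% of all genes. Egfl7 fell by 1.62 ± 0.38. Kdr, a VEGF receptor on the endothelial list, was at 169, 114 and 192 CPM against 261, 250 and 167 CPM. It just missed the threshold (0.51 ± 0.20, edgeR adjusted p = 0.054), while 9 of 16 alternatives called it higher. Kdr was more abundant than Pecam1 and Cldn5 of the same list. Scaled together with the diet libraries, control mice had 114 to 194 CPM of Kdr, 43.3 to 62.7 of Pecam1 and 27.2 to 84.8 of Cldn5. Of 3 pericyte genes tested, Rgs5 and Vtn were called higher (1.06 and 1.62), but the call of Rgs5 was lost in 2 alternatives and its log2 fold change was 0.11 with each cell weighted alike. Microglia genes summed to 0.00941% to 0.0165% and 0.00731% to 0.0131% of UMIs, with 3 of 8 called lower, C1qa, C1qb and Cx3cr1, each in a way that some alternatives lost. Astrocyte and hemoglobin genes had 0 calls of 4 each, with summed shares of at most 0.0114% and 0.00741%. The melanin genes Dct and Tyr fell by 1.58 ± 0.21 and 1.82 ± 0.32, Dct from 498, 500 and 462 CPM to 236, 138 and 115 CPM, while the other 5 genes of the pigment epithelium list were not called. Of the lens crystallins, 2 were tested and both fell (Crybb3 by 2.19 and Cryab by 0.64), but the groups overlapped for Cryab and 7 alternatives lost its call.

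The ribosomal RNAs and most protein genes of the mitochondrial genome were lower in STZ mice, the ribosomal RNAs most. mt-Rnr2, the large mitochondrial ribosomal RNA (chrM:1094-2675), was at 31008, 35940 and 46638 CPM in control mice and 7474, 3827 and 4163 CPM in STZ mice, a log2 fold change of -2.88 ± 0.28 (edgeR adjusted p = 1.6e-05). mt-Rnr1, the small one, changed by -2.48 ± 0.25. Together the 2 took 4.02% ± 0.738 of control UMIs and 0.683% ± 0.244 of STZ UMIs (SD, n = 3 each, exact permutation p = 0.1, the smallest possible, adjusted 0.16). Of the 13 mitochondrial protein genes, 11 were called lower, with a median of -0.92, and their share was 6.91% ± 0.241 in control and 4.31% ± 1.95 in STZ mice. The STZ mice differed here, with 6.51% in the first mouse, close to the controls, and 2.79% and 3.62% in the others. Unprocessed pseudogenes, as a gene type, took 4.00% to 4.12% of UMIs in control mice and 3.98%, 1.55% and 2.08% in STZ mice. Whether such genes share reads with the mitochondrial genes was not tested. mt-Nd4 was at 9581, 10896 and 10973 CPM against 7180, 3048 and 3791 CPM (-1.17 ± 0.26). The calls of mt-Cytb and mt-Atp6 were lost with DESeq2 and without the third STZ mouse, and mt-Co1 and mt-Nd6 were not called. Without the first STZ mouse all 13 were called lower, and without the third 7 were. Of 13 mitochondrial transfer RNAs tested, 3 were called higher and 4 lower, against 24.7% and 23.4% of all genes, with a median of -0.21. Their share of UMIs was 0.611% to 0.676% in control mice and 0.778%, 0.285% and 0.325% in STZ mice, so that the first STZ mouse lay above all controls and the others below.

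**Figure D3:**
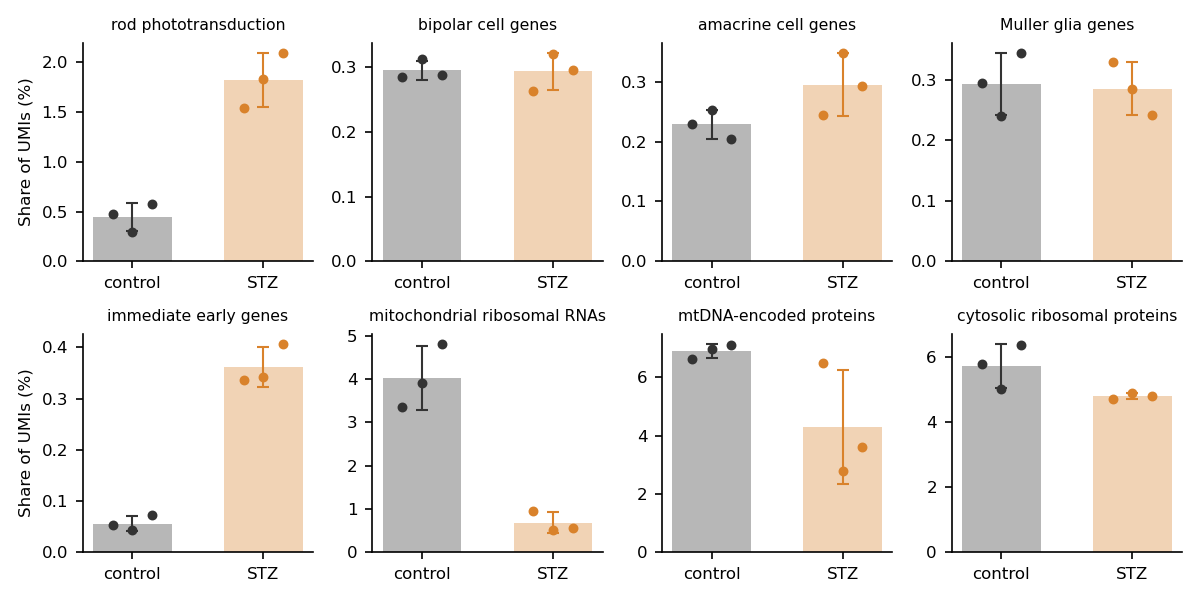
Percent of all UMIs taken by each gene list in each of the 6 mice, with a point for each mouse, bars for the mean and error bars for the SD of 3 mice. Rod and immediate early genes take more of the STZ profiles and mitochondrial ribosomal RNAs less, while bipolar and Müller glia shares overlap between the groups.

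The nuclear genes of the respiratory chain fell in parallel. Of 37 complex I subunits, 35 were called lower and none higher, against 23.4% and 24.7% of all genes, with a median of -0.83. Of 39 subunits of complexes II to V, 33 were called lower and none higher, with a median of -0.73. Scaling to total counts left 27 and 25 of these lower, with 1 complex I subunit higher, and giving each cell the same weight left 20 and 20, with 2 higher. Ndufb6, an accessory subunit of complex I, was at 197, 188 and 222 CPM in control mice and 59.3, 61.1 and 57.8 CPM in STZ mice (-1.77 ± 0.12, edgeR adjusted p = 2.7e-06). Ndufc2 and Ndufa13 changed by -1.61 and -1.47. Cox5a of cytochrome c oxidase was at 459, 429 and 481 CPM against 196, 186 and 212 CPM (-1.20 ± 0.11), and Atp5g1, the c subunit of ATP synthase, at 473, 475 and 528 CPM against 253, 214 and 203 CPM (-1.14 ± 0.12). Ndufb6 and Cox5a each overlap a gene on the opposite strand that also fell, Smim27 (-1.66) and Gm26631 (-1.31), with which they may share reads. Cox6a1, another subunit of cytochrome c oxidase, had 401 ± 53.9 and 393 ± 40.6 CPM and was not called, with an interval of -0.32 to 0.26.

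Among the enzymes that feed the chain, calls went both ways. Of 23 genes of pyruvate dehydrogenase and the TCA cycle, 11 were called lower and 3 higher, against 23.4% and 24.7% of all genes. Mdh1, malate dehydrogenase, was at 819, 820 and 771 CPM against 397, 429 and 414 CPM (-0.96 ± 0.11), Idh3g fell by 1.15 and Fh1 by 1.00, and Ogdh, a subunit of the 2-oxoglutarate dehydrogenase complex, rose from 96.5, 90.9 and 90.4 CPM to 150, 169 and 154 CPM (0.77 ± 0.12). Glycolytic genes were called lower in 8 of 17 cases and higher in 2, with a median of -0.22 that became 0.046 with scaling to total counts, which called 6 higher and 5 lower. The 2 that rose were hexokinases, which commit glucose to the cell: Hk1 was at 89.6, 90.9 and 97.8 CPM in control mice and 244, 247 and 219 CPM in STZ mice (1.35 ± 0.12, edgeR adjusted p = 9.2e-06), and Hk2 at 12.9 ± 0.381 and 28.3 ± 3.29 CPM (1.13 ± 0.20). Gapdh fell from 3422, 3395 and 3515 CPM to 2016, 2104 and 2115 CPM (-0.73 ± 0.12), Tpi1 by 1.10 and Eno1 by 0.95.

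Of 17 genes of glucose transport and the insulin response, 7 were called higher and 2 lower, against 24.7% and 23.4% of all genes. Irs2, an adaptor of the insulin and IGF1 receptors (chr8:10984681-11008458, minus strand), was at 5.67, 9.77 and 9.74 CPM in control mice and 83.4, 78.8 and 109 CPM in STZ mice. The groups were far apart, with a log2 fold change of 3.42 ± 0.22 (edgeR adjusted p = 1.8e-06). Foxo3, a factor restrained by insulin signalling, was at 25.9, 24.6 and 26.9 CPM against 67.7, 68.0 and 66.7 CPM (1.38 ± 0.14), and Pik3r1, a regulatory subunit of phosphoinositide 3-kinase, rose by 1.27 ± 0.15. The glucose transporters diverged: Slc2a1 (GLUT1) was at 72.5, 54.8 and 81.0 CPM against 102, 104 and 105 CPM (0.57 ± 0.15), and Slc2a3 (GLUT3, the neuronal form) at 103, 122 and 127 CPM against 63.1, 80.6 and 62.0 CPM (-0.78 ± 0.15). Txnip, a gene induced by glucose, was at 13.3 ± 3.63 and 10.5 ± 5.55 CPM and was not called (interval -1.17 to 0.52).

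In the IGF and VEGF pathways, 6 of 25 genes were called higher and 3 lower, no more than the 24.7% and 23.4% of all genes. Igf1r was at 68.1, 66.7 and 69.6 CPM in control mice and 166, 175 and 222 CPM in STZ mice (1.46 ± 0.14, edgeR adjusted p = 1.6e-05), whereas its ligand Igf1 was not called (47.5 ± 7.05 and 40.0 ± 4.60 CPM). Vegfa rose from 51.5, 34.0 and 40.7 CPM to 84.3, 64.2 and 65.4 CPM (0.76 ± 0.18). Thbs1, an antiangiogenic matrix protein, rose by 2.65 ± 0.43, and Fzd4 rose by 2.54 while Lrp5, its co-receptor for norrin, fell by 1.21. Sparc was called lower (-0.59 ± 0.20), but the groups overlapped and 6 alternatives lost the call. Among targets of the hypoxia-inducible factors, 9 of 18 rose and 3 fell, with Ddit4 at 1.37 and Ankrd37 at -1.12.

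Lipid genes rose more often than they fell. Of 24 genes of fatty acid synthesis, elongation and oxidation, 13 were called higher and 2 lower, against 24.7% and 23.4% of all genes. Cpt1a, which admits long-chain fatty acids to mitochondrial oxidation, was at 11.8, 7.65 and 18.5 CPM in control mice and 61.0, 71.9 and 91.4 CPM in STZ mice (2.54 ± 0.26, edgeR adjusted p = 2.3e-05), and Cpt2 rose by 1.52 ± 0.34. Elovl2 and Elovl4, elongases for very long polyunsaturated fatty acids, rose by 1.42 ± 0.20 and 1.21 ± 0.17, Elovl4 from 149, 103 and 174 CPM to 334, 310 and 341 CPM. Adipor1, a receptor that supports retinal docosahexaenoic acid, rose from 101, 71.8 and 127 CPM to 209, 210 and 243 CPM (1.14 ± 0.18). Fabp5, a fatty acid binding protein, fell from 314, 267 and 316 CPM to 130, 120 and 131 CPM (-1.23 ± 0.12). Of 22 cholesterol genes, 10 rose and 4 fell, with 8 to 13 called higher and 2 to 4 lower over the alternatives. Idi1, an isomerase of the mevalonate pathway, was at 36.5, 46.3 and 45.4 CPM against 90.9, 114 and 103 CPM (1.27 ± 0.15), Cyp51 rose by 1.34, and Fdps fell by 1.26.

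Translation and protein turnover genes fell. Of 79 cytosolic ribosomal protein genes, 66 were called lower and none higher, with a median of -0.53 and changes from -0.94 to -0.023, and scaling to total counts left 29 lower, giving each cell the same weight 21. Their share of UMIs was 5.72% ± 0.671 in control and 4.78% ± 0.0981 in STZ mice. Rps4x was at 1436, 1475 and 1498 CPM against 830, 770 and 824 CPM (-0.86 ± 0.11). Of 57 mitochondrial ribosomal protein genes, 36 were called lower, and 18 with total counts, which also called 2 higher. Mrps26 was at 455, 432 and 358 CPM against 153, 112 and 99.5 CPM (-1.77 ± 0.16). Of 31 proteasome subunits, 28 were called lower and 1 higher, with a median of -0.82, and 21 were lower with total counts. Psmb4 of the core particle was at 366, 351 and 340 CPM against 140, 146 and 147 CPM (-1.29 ± 0.11, edgeR adjusted p = 7.4e-06). The exception was Psmd3 of the regulatory particle, which rose from 34.8 ± 2.15 to 59.7 ± 7.86 CPM. Of 30 cytoskeleton and neuronal microtubule genes, 14 were called lower and 6 higher, and 11 each way with scaling to total counts. The tubulin gene Tuba1a fell from 2788, 2401 and 2689 CPM to 837, 1050 and 1157 CPM (-1.37 ± 0.15) and Tubb5 fell by 1.15, while Map2, a dendritic microtubule-associated protein, rose by 0.66 ± 0.11. Among antioxidant genes 5 of 18 rose and 6 fell, against 24.7% and 23.4% of all genes. Prdx2 and Txn1 fell by 1.27 and 1.16, and Srxn1, which repairs oxidised peroxiredoxin, rose by 1.85 ± 0.27.

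The list of structured RNAs, which carry no poly(A) tail, had all 4 of its tested members called lower. Rn7sk, the 7SK RNA that restrains transcription elongation (331 nucleotides, chr9:78175303-78175633, minus strand), was at 212, 222 and 329 CPM in control mice and 9.01, 3.49 and 1.05 CPM in STZ mice (-5.82 ± 0.40, edgeR adjusted p = 2.2e-06). Rpph1, the RNA of RNase P (chr14:50807449-50807767, minus strand), was at 14.996, 17.0 and 17.1 CPM against 0.291, 0 and 0.263 CPM (-6.10 ± 0.50). It overlaps Ccnb1ip1, with which it may share reads. Rmrp, the RNA of RNase MRP, was at 9.32, 7.65 and 10.4 CPM in control mice and had no UMI in any STZ mouse, at least 30.8-fold lower than in control mice at a floor of 3 UMIs over the STZ group. Rn7s1, a signal recognition particle RNA, fell by 1.85 ± 0.24. Gm26315 and Gm24447, which resemble 7SK and may take its reads, fell by 5.30 and 4.77.

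The last 60 bases of 2 of these RNAs are printed, with the longest run of A in capitals, because the library method primes on poly(A) and these RNAs end without one.
Rn7sk: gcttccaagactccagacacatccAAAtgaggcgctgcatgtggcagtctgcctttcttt
Rpph1: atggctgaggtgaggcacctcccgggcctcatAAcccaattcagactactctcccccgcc
The longest run of A in the whole transcript was 3 bases in Rn7sk and 2 in Rpph1, against a median of 6 over the 15672 tested genes with a transcript sequence.

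Protein-coding genes were also among the 10 largest falls of genes with at least 10 CPM in control mice and no overlap. T2 (chr17:8355992-8423513, plus strand) was at 362, 367 and 337 CPM in control mice and 18.0, 12.9 and 12.3 CPM in STZ mice (-4.62 ± 0.16, edgeR adjusted p = 2.1e-08), and it overlaps the unnamed gene Gm16702. Als2cl was at 88.4, 66.7 and 150.5 CPM against 8.43, 4.54 and 2.63 CPM (-4.30 ± 0.38), and Stard8, with a control level that was highest in 1 mouse, at 10.5, 37.8 and 8.40 CPM against 1.16, 1.74 and 1.05 CPM (-3.81 ± 0.64). Gm37357, a transcript model that awaits experimental checking (chr1:161811045-161814167, minus strand), was at 2894, 3151 and 3912 CPM against 359, 195 and 185 CPM (-3.75 ± 0.25). By gene type, protein-coding genes were called higher in 29.5% and lower in 18.5% of 12597 cases. Processed pseudogenes, reverse-transcribed copies of mRNAs that can share their reads, were called higher in 0.759% and lower in 60.2% of 922 cases, and long intergenic noncoding RNAs higher in 8.73% and lower in 31.7% of 504. Protein-coding genes took 68.8% to 71.0% of UMIs in control mice and 77.0% to 83.8% in STZ mice. Within long noncoding RNAs of neurons and nuclei, Malat1 fell from 1246, 1412 and 1573 CPM to 1100, 787 and 632 CPM (-0.75 ± 0.18), and 10 of 17 were not called.

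Transcript length moved with the fold change. From the fifth of protein-coding genes with the shortest annotated transcripts to the fifth with the longest, the median log2 fold change was -0.33, 0.10, 0.23, 0.34 and 0.40, the percentage called higher went from 11.6 to 41.2 and the percentage called lower from 36.8 to 10.9. Over 12610 genes the Spearman correlation of length and fold change was 0.271, a description across genes that share the 6 libraries. The part of length in the falls of ribosomal, proteasome and respiratory chain genes was not tested. Control cells were also deeper, by a median of 2019 against 1100 UMIs, and the part of depth per cell was not tested. With each cell scaled to the same total, 7051 genes were called, 4813 higher and 2238 lower, and with all libraries thinned to equal totals, which leaves the difference between cells in place, 7449 were.

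**Figure D4:**
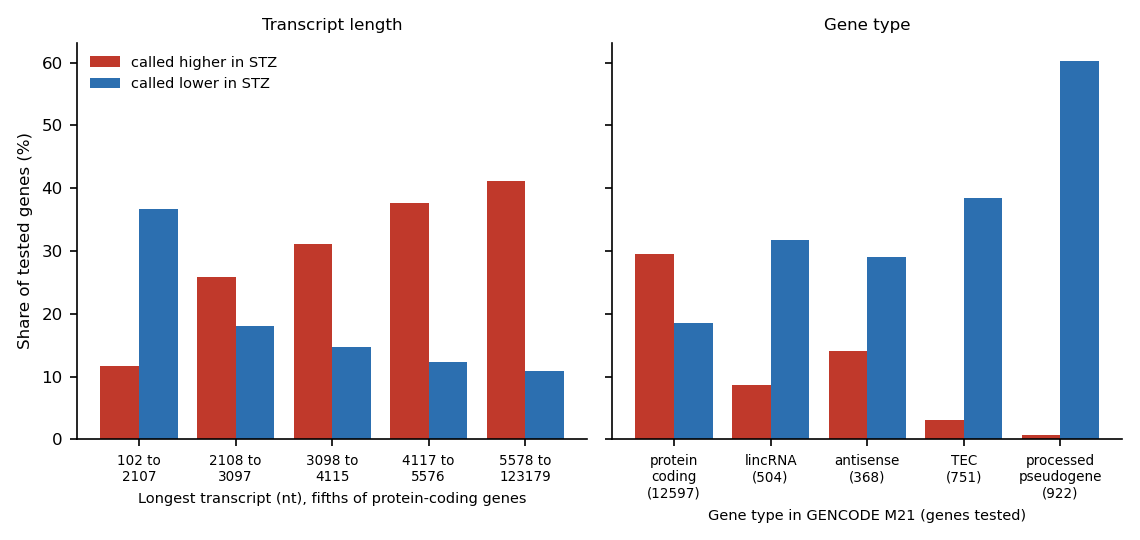
Percentage of tested genes called higher (red) and lower (blue) in STZ mice, for protein-coding genes in 5 bins of longest annotated transcript (left) and for 5 gene types with the number of genes tested (right). The share called higher runs from 11.6% in the shortest bin to 41.2% in the longest, and 60.2% of processed pseudogenes are called lower.

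Clock genes rose in 14 of 19 cases and fell in 1, with a median of 1.04. Per1, a light-inducible and stress-inducible clock gene, was at 5.67, 1.70 and 6.72 CPM in control mice and 17.4, 21.6 and 27.6 CPM in STZ mice (2.20 ± 0.37, edgeR adjusted p = 5.6e-04), Cry1 rose from 20.8 ± 3.21 to 61.7 ± 7.62 CPM (1.56 ± 0.17) and Nfil3 by 2.05 ± 0.33. The hour of tissue collection is not given in the sources used here. Genes of the Bcl2 family and caspases were called higher in 5 of 18 cases and lower in 4, near the 24.7% and 23.4% of all genes. Among them, the proapoptotic Bax fell from 128, 113 and 104 CPM to 51.1, 51.3 and 51.0 CPM (-1.17 ± 0.13). The proapoptotic Bcl2l11 and antiapoptotic Mcl1 rose by 1.91 ± 0.28 and 1.46 ± 0.14. Proliferation genes were called higher in 2 of 20 cases and lower in 5, axon guidance genes higher in 10 of 36 and lower in 5, and postsynaptic genes higher in 10 of 34 and lower in 6, against 24.7% higher and 23.4% lower among all genes. Splicing factors were called higher in 7 of 22 cases and lower in 3, against the same shares of all genes.

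**Figure D5:**
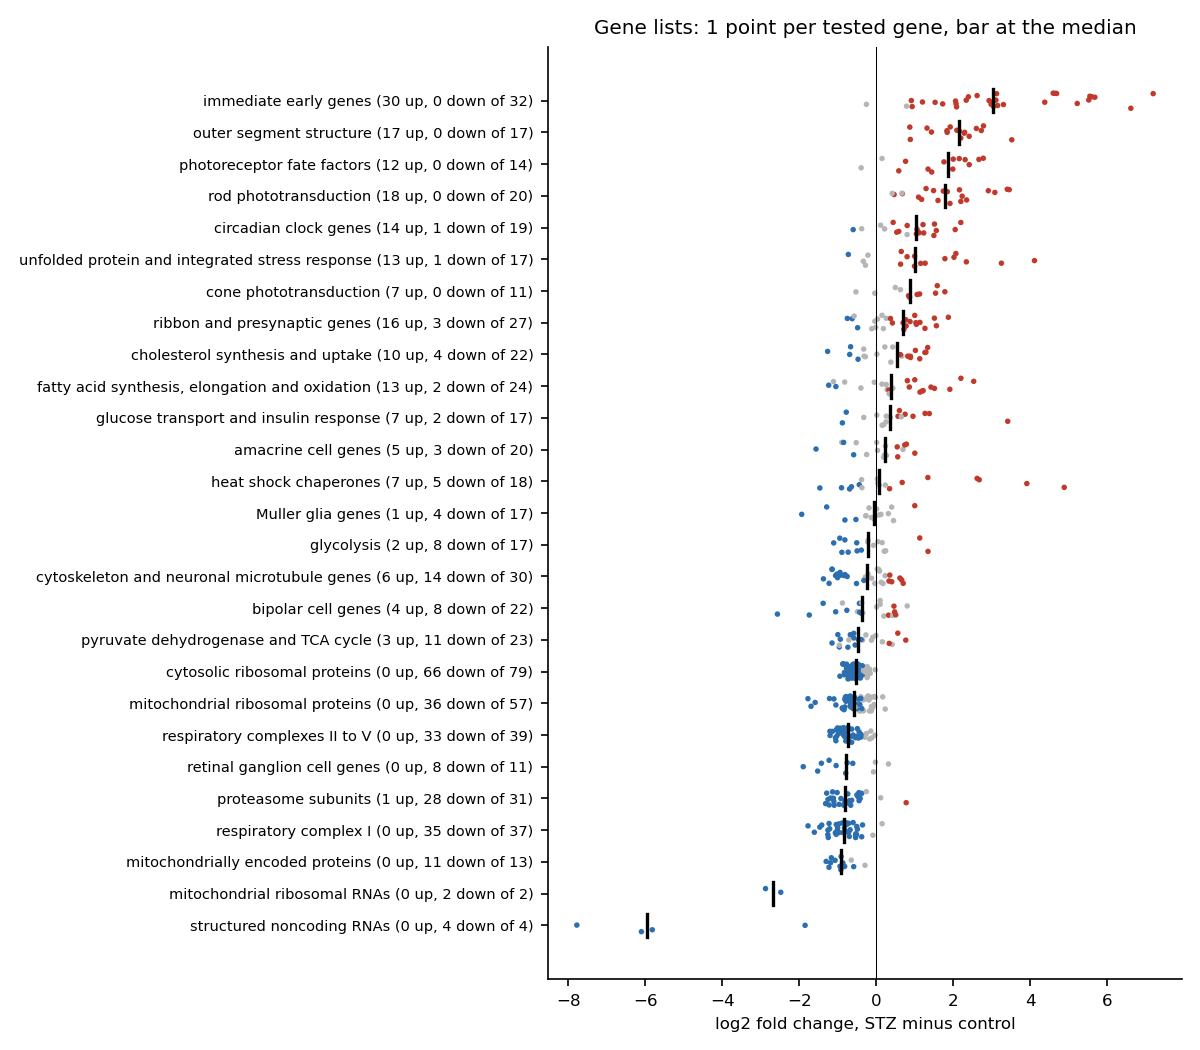
Log2 fold changes, STZ over control, of the tested members of the main gene lists, with a point for each gene, coloured by call (red higher, blue lower, grey not called), and a line at the list's median. The medians run from -5.96 for structured RNAs and -2.68 for mitochondrial ribosomal RNAs to 2.16 for outer segment genes and 3.05 for immediate early genes.

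Sex-linked genes were checked because littermates of either sex can enter a group. The Y-linked genes Eif2s3y, Kdm5d and Uty were expressed in all 6 mice and were not called, and Ddx3y rose by 0.75 ± 0.15. Xist, which is transcribed from the inactive X of female cells, had 95, 95 and 65 UMIs in the control mice and 9, 3 and 5 in the STZ mice. In control mice these came from 17, 14 and 16 cells with up to 27 UMIs in a cell, and in STZ mice from 7, 3 and 5 cells with at most 2. The fitted log2 fold change of -4.28 thus rests on few cells. In 3 of the diet libraries Xist was found in 714 to 1326 cells. The Y-linked genes together gave 55 to 94 UMIs in those 3, against 320 to 660 in the 6 compared mice. By these genes the 6 compared libraries read as male, while the diet libraries held both sexes.

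The series holds no control mice labelled with these diets, so the values of the diet libraries are set beside the others and not tested. With all 11 libraries scaled together, Prph2 was at 114 to 266 CPM in control mice and 1139 to 1469 CPM in STZ mice. It was at 1585 to 2047 CPM in the 2 omega-3 mice and 1584 to 1920 CPM in the 3 omega-6 mice. Fosb was at 0.424 to 1.02, 110.6 to 140.2, 135.4 to 219.7 and 165.0 to 173.0 CPM in the same order. Rn7sk was at 214 to 333, 1.08 to 9.13, 2.34 to 4.20 and 7.46 to 16.1 CPM, and mt-Rnr2 at 31273 to 47258, 3889 to 7578, 2922 to 3439 and 5113 to 8185 CPM. For these 4 genes all 5 diet libraries lay on the side of the STZ mice. Hspa1a, at 15.3 to 16.3 and 14.3 to 20.2 CPM in the diet libraries, lay below all STZ mice, the highest of which was at 320.5 CPM.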

How the data were processed

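Whole retinas of 6 P10 mice were profiled with the inDrop v3 method. Per the study's methods, the authors assigned reads to mouse transcripts (GRCm38, GENCODE M23) with Rapmap in bcbio-nextgen, collapsed them by UMI and left out cells with few reads. The deposited values are UMI counts per gene and cell, not normalised, for 25311 genes named by symbol. Whether counting used the strand, and any doublet removal, is not given in the sources used here, and no doublet caller was run.

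Counts of cells with more than 300 genes were summed per mouse. The groups were compared with edgeR 4.0.16 (filterByExpr, TMM, glmQLFit, glmQLFTest), with genes called at a Benjamini-Hochberg adjusted p under 0.05, over 15964 genes. Fold changes are STZ over control with their SE, and CPM are means ± SD of 3 mice. Shares and medians per cell were compared by two-sided exact permutation tests over mice, which with 3 against 3 cannot go below 0.1. Gene positions came from GENCODE M21 (GRCm38), which matched 97.4% of the genes, and upstream sequences from RefSeq (GRCm38.p6), with a window for 65.2% of the tested genes. Scripts were tested on simulated data. Alternatives were DESeq2 1.42.0, other scalings, filters, fits and cell limits, thinning to equal depth and leaving out each mouse.

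The genes named were, among called genes whose mice did not overlap and which reached 10 CPM, the 10 that rose most and the 10 that fell most, up to 3 called genes in each direction of each gene list (the most abundant where few were called), genes the study measured, the most abundant genes, those with the largest gain or loss in CPM, those with the narrowest interval around 0 and sex-linked genes. From this set, those with a described role were taken, and further members of the lists were named after their values were seen. The gene lists and the comparison were chosen with earlier results of these data known, so a list's direction is not independent evidence. Some named genes are not reported here.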

Additional observations from a re-analysis of the deposited data

Results flagged for a closer look

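Signals also appeared in the 5 diet libraries, which the comparison of STZ with control mice does not use. The summed share of rod phototransduction genes was at least 1.88% of UMIs in each of them (median 1.90%, highest 2.44%), above the highest control mouse at 0.576%. The share of immediate early genes was at least 0.412% in each (median 0.457%, highest 0.561%), above the highest control mouse at 0.0729%. None of the other shares compared lay above all control mice in every diet library. Mitochondrial ribosomal RNAs took 0.398% to 1.08% of UMIs in the diet libraries, below the control mice (3.35% to 4.81%). Mitochondrially encoded proteins took 5.82% to 7.28% of UMIs in the diet libraries, overlapping the control mice (6.65% to 7.12%), and bipolar cell genes took 0.187% to 0.266%, below the control mice (0.285% to 0.313%). These libraries have no controls of their own, and the differences were not tested.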

How the results depend on the processing

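Between 6094 (without the third STZ mouse) and 8196 genes (all 4 treatment groups in 1 fit) were called over all alternatives, each within 1.5 times the 7677 reported. DESeq2 called 6578, and leaving out 1 mouse gave 6094 to 7598. Scaling to total counts put 70.6% of calls on the higher side and giving each cell the same weight 68.3%, against 51.4% reported, and moved the median gene by 0.26 and 0.23 on the log2 scale. Mice that share a number in the labels did not deviate together (correlations -0.017, 0.10 and 0.15), and a fit with the number as a replicate block called 7783 genes. Of the 168 genes named, 147 were called, and of these 132 kept their call in each of the 15 or 16 settings that gave a value and none changed direction, whereas the fold changes of some genes that were not called changed sign. The differences in share that were near 0 changed sign: bipolar genes, -0.0015 percentage points, gave 0.0103 with cells of more than 500 genes and -0.0151 to 0.0134 when 1 mouse was left out, and Müller glia genes, -0.0073, gave -0.0335 to 0.0180. None of these passed the test, which at 3 against 3 could not reach 0.05. The median number of genes per cell, lower by 308 in STZ mice, was higher by 29.8 when each cell was thinned to 500 UMIs. The cause of these changes was not tested. Depth limits genes with a few UMIs per mouse, whose intervals are wide.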
